A study of Mus musculus with 30 samples.

Results

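Interferon-stimulated genes are genes whose transcription rises when a cell receives an interferon. A list of 41 of them was followed in mouse liver after instillation of carbon black nanoparticles into the lung. Each gene was matched to the arrays through the RefSeq transcript accession that the scanner files give for a probe. Of the 41 genes, 37 had a matched probe, with 52 probes in all. A probe was kept where its liver signal stood well above background on at least 14 of the 30 arrays. This left 51 probes and all 37 of those genes. Mx2, Xaf1, Samd9l and Herc6 had no matched probe and were not analysed here. Where a gene had several probes, the brightest stood for it. By the interferon they are best known for, 27 of the 37 genes are type I targets and 10 are type II targets, although many respond to both. The 37 genes were fitted together with all other probes, which cover 12187 named genes.

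The livers came from female C57BL/6 mice, with 1 array per animal and 200 ng of total RNA per labelling. The 16 control animals carry the treatment label none. The 14 exposed animals had received 0.162 mg of Printex 90, a carbon black of nanometre-sized particles, through the trachea, in salt water to which cell-free lavage fluid from other mice of the strain was added. All mice were 5 to 6 weeks old when they were acquired. Whether the controls received the fluid, and the time from instillation to dissection, were not given in the sources used here. Liver RNA was labelled with Cy5 and hybridised beside Cy3-labelled universal mouse reference RNA, and the measured quantity is the log2 ratio of liver over reference, called the log ratio from here on. By the animal numbers in the labels, each group consists of 3 runs of close numbers, whose meaning is not given. The control runs are animals 547 to 552 (run 1, n = 6), 570 to 575 (run 2, n = 5) and 595 to 600 (run 3, n = 5). The exposed runs are animals 176 to 180 (run 1, n = 4), 193 to 197 (run 2, n = 5) and 212 to 216 (run 3, n = 5).

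Type I interferons bind a shared receptor and, through the kinases JAK1 and TYK2, bring together a complex that holds STAT2 and IRF9 and binds the interferon-stimulated response element (ISRE) in promoters. Interferon gamma, the type II interferon made by T and NK cells, has its own receptor and acts through the gamma-activated site (GAS). The induced proteins sense foreign nucleic acid, block steps of viral growth, disrupt the vacuoles of intracellular microbes and load peptides onto MHC class I. In liver the hepatocytes, the resident macrophages called Kupffer cells and the sinusoidal endothelium can all respond. In bulk tissue, fewer cells of a type and less RNA per cell cannot be told apart.

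The binding sites of this pathway can be read in the members' own promoters. The 250 bases before the start of transcription were taken from the RefSeq promoter table (GRCm38.p6), which held 32 of the 41 genes, and were searched on both strands for the ISRE core, which is GAAA, any 2 bases and GAAA again, and for the GAS core, which is TTC, any 3 bases and GAA. The ISRE core was found in 11 of the 32 (34.4%) and in 3.46% of the 27025 genes of the table. The GAS core was found in 7 of the 32 (21.9%) and in 8.13% of the table. By class, 7 of 24 type I targets (29.2%) and 4 of 8 type II targets (50%) held the ISRE core. For the GAS core these counts were 4 of 24 (16.7%) and 3 of 8 (37.5%). The 2 motifs can overlap on the sequence, and GAAA repeats give overlapping ISRE matches, as in Isg15. Windows are shown for 4 type I targets, for 2 GTPases of the gamma-interferon class and for Irf1, written 5′ to 3′ in the direction of transcription with the matched core in capitals (the reverse complement of the core where it lies on the opposite strand). The positions are chr4:156200861-156200910 (minus strand) for Isg15, chr19:34583353-34583402 (plus) for Ifit3, chr12:26456543-26456592 (minus) for Rsad2, chr8:71537573-71537622 (minus) for Bst2, chr3:142559979-142560028 (plus) for Gbp3, chr3:142620584-142620633 (plus) for Gbp2 and chr11:53769904-53769952 (plus) for Irf1. The first 6 show an ISRE core and the last a GAS core.
Isg15: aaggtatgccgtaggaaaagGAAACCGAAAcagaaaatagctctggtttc
Ifit3: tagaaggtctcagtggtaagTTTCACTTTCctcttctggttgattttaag
Rsad2: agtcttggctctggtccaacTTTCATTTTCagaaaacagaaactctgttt
Bst2: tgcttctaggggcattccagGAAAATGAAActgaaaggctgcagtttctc
Gbp3: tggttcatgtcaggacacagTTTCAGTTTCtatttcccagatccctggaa
Gbp2: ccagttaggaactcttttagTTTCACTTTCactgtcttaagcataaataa
Irf1: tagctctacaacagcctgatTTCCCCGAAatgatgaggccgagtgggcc
A match describes these letters only and is not evidence of binding.

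The arrays had 41174 probes for genes. Between 42.8% and 79.2% of spots stood well above background in the liver channel, and of the 37 genes 35 did so on all 30 arrays. No member was saturated. Hepatocyte markers such as albumin stood far above the reference in every animal, with a mean log ratio over 9 markers from 4.91 to 6.53. The arrays lay on 9 slides, 7 of which held both groups. All run 1 animals of both groups were hybridised in the first place of a pair of positions and all run 3 animals in the second. Each control RNA was in array position 1 or 2 and each exposed RNA in 3 or 4, so position and group cannot be told apart. The 2 groups and 6 runs were fitted in limma with slide as a random block, and p values were adjusted by the Benjamini-Hochberg method over 23606 probes. A change was called at an adjusted p below 0.05. A mean is given ± SD over animals and a difference ± its standard error from the fit.

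Across all 14 exposed and 16 control livers, no interferon-stimulated gene passed the test. With limma, 0 of 37 were called (percent called over all named genes: 0.0164%), 9 had an unadjusted p below 0.05, and 32 of the 37 differences lay below 0. The median difference was -0.16, against 0.01 over all probes, and the largest was that of Rsad2 at -0.46 ± 0.19 (limma adjusted p = 0.327). The smallest adjusted p was that of Irgm1, a GTPase of the gamma-interferon class, at 0.151 with a difference of -0.24 ± 0.07.

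The picture differed in the 4 livers of exposed run 1. Against the mean of the 3 control runs, 20 of the 37 genes fell, 0 rose and 17 did not pass. Over all named genes 4.5% were called lower and 6.04% were called in either direction. The median difference of the 37 was -0.46, against -0.01 over all probes, and 36 lay below 0. In exposed run 2 the count was 0 of 37 (0.00821% of named genes called), with a median of 0.10 and 7 genes at an unadjusted p below 0.05. In exposed run 3 it was 0 of 37 (0.139% called, 0.0246% lower), with a median of -0.13 and 5 genes at an unadjusted p below 0.05. These 3 comparisons share their controls. A direct test among the 3 exposed runs called 19 of 37 genes (limma F test; 5.16% of named genes called), and the same test among the 3 control runs called 0 of 37 (0.107% called), with 19 at an unadjusted p below 0.05. The count of 19 became 5 with median centring, 6 with slide as a fixed block, 7 with the Cy5 signal alone, 9 with the place term, 10 without the arrays of the earlier software and 12 without exposed animal 176. The count of 20 became 12 without exposed animal 176, 10 with the place in the pair as a term and 7 with median centring in place of loess, and no member was called higher in any of 44 settings. Over all probes 747 of 1126 calls were lower (66.3%), a share that became 26.4% with median centring, 39.7% with the Cy5 signal alone, 50.7% with the processed Agilent signals and 42.2% with the place term. Without exposed animal 176 the share became 35.3% (191 of 541 calls).

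**Figure D1:**
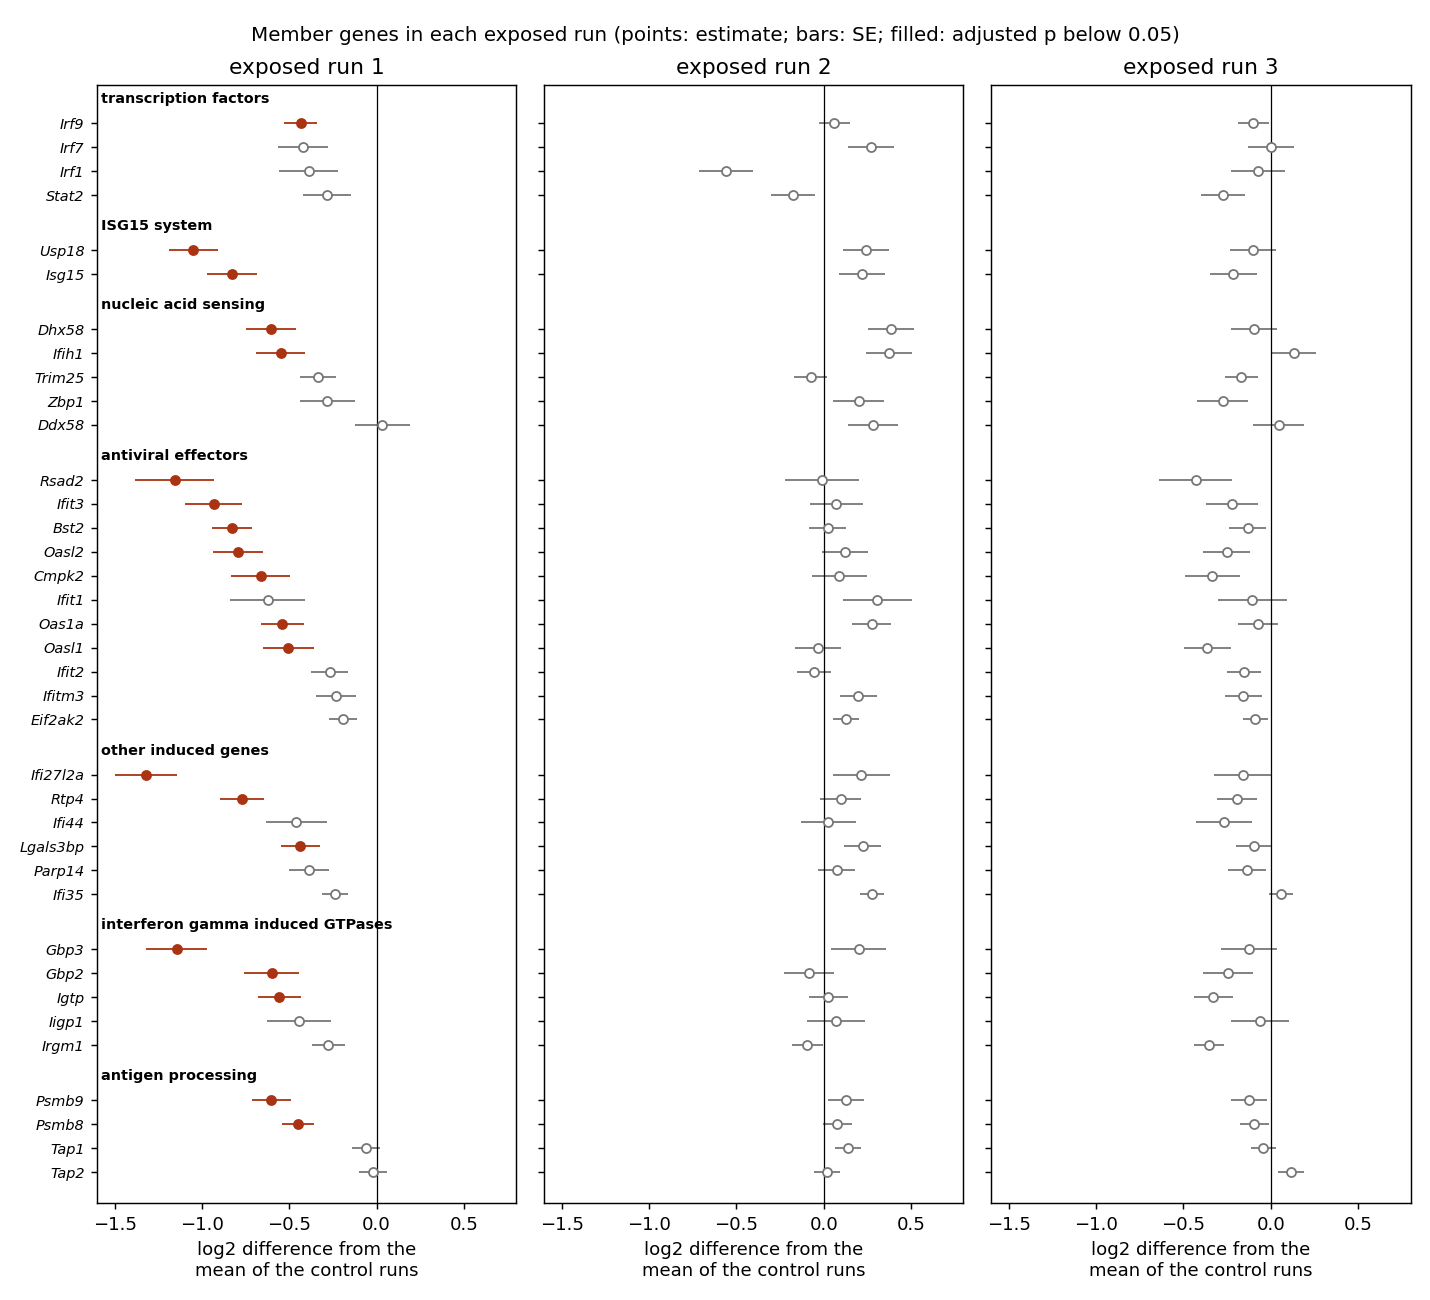
Log2 difference of each of the 37 genes from the mean of the 3 control runs, in exposed run 1 (n = 4), run 2 (n = 5) and run 3 (n = 5), ordered by role and by the difference in run 1. Points are limma estimates, bars are standard errors, and filled points have an adjusted p below 0.05: 20 genes in run 1 and 0 in runs 2 and 3.

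Among the transcription factors that carry the interferon signal, 1 of 4 fell in exposed run 1. This was Irf9, a DNA-binding subunit of the complex that binds the ISRE. Its log ratio was 0.84, 1.01, 1.28 and 1.11 in animals 176, 177, 179 and 180, and 1.091, 1.501 and 1.750 at the lowest, median and highest of the 16 controls. The lower 2 of the exposed values lay below every control and the others within the control range. The difference was -0.43 ± 0.10 (1.35-fold lower; limma adjusted p = 0.00773), while runs 2 and 3 averaged 1.55 ± 0.21 and 1.40 ± 0.10. A dimmer Irf9 probe gave -0.17 ± 0.08 (limma adjusted p = 0.277), so the 2 probes of this gene disagree on the call. The call of the brighter Irf9 probe was lost with median centring (limma adjusted p = 0.476), with the place term (adjusted p = 0.0773) and without animal 176 (adjusted p = 0.0653). Irf7, which amplifies type I interferon production, lay between -0.20 and 0.04 in the 4 animals, inside the control range of -0.29 to 0.88 but in a narrow band at its lower end. Its difference from the controls was -0.42 ± 0.14 (limma adjusted p = 0.0859) and from exposed runs 2 and 3 -0.56 ± 0.15 (adjusted p = 0.0255), so that only the comparison within the exposed group passed. That call was lost with the place term (-0.41, adjusted p = 0.523), with median centring (adjusted p = 0.319), with a fixed slide term (adjusted p = 0.0819) and without animal 176 (adjusted p = 0.0678). Irf1, the early gamma-interferon factor whose GAS core is printed above, was widely spread in exposed run 1, with -0.91, 0.03, 0.54 and -0.08. Its difference was -0.39 ± 0.17 (limma adjusted p = 0.1996), and the reference channel moved by -0.34 at the same spot. A second Irf1 probe gave -0.16 ± 0.10 (adjusted p = 0.384). Irf1 was the only one of the 4 factors with a larger shift in exposed run 2, at -0.56 ± 0.16 (adjusted p = 0.176). Stat2 had the largest p of the factors, with log ratios of 0.73, 0.904, 1.541 and 1.505 and a difference of -0.28 ± 0.14 (limma adjusted p = 0.266).

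Both tested members of the ISG15 system fell. Isg15 encodes a ubiquitin-like protein that is attached to other proteins after interferon, and Usp18 removes it and also dampens the type I receptor. Of the enzymes that attach it, 2 were in the further list read below. Uba7 was lower by 0.51 ± 0.10 (limma adjusted p = 0.00244), and Ube2l6 did not pass at -0.28 ± 0.11 (adjusted p = 0.157). Usp18 stood at -1.56, -1.37, -0.93 and -1.37 in animals 176, 177, 179 and 180. The controls ran from -1.08 through a median of -0.26 to 0.36, so 3 of the 4 animals were below every control. The difference was -1.05 ± 0.14 (2.07-fold lower; limma adjusted p = 0.000101). All 10 animals of exposed runs 2 and 3 lay between -0.55 and 0.38, above the 4 animals of run 1. Isg15 stood at -0.28, -0.33, 0.33 and -0.10, against 0.11, 0.69 and 1.19 at the lowest, median and highest of the controls (n = 15, since the spot of control 573 was an outlier on the scanner's flag). Animal 179 lay inside the control range and the others below it. Isg15 was 1.78-fold lower (limma adjusted p = 0.00115), and its run means went from -0.09 ± 0.30 in exposed run 1 to 0.95 ± 0.33 in run 2 and 0.53 ± 0.26 in run 3. With median centring the Isg15 difference was -0.78 and just missed the threshold (adjusted p = 0.0542).

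**Figure D2:**
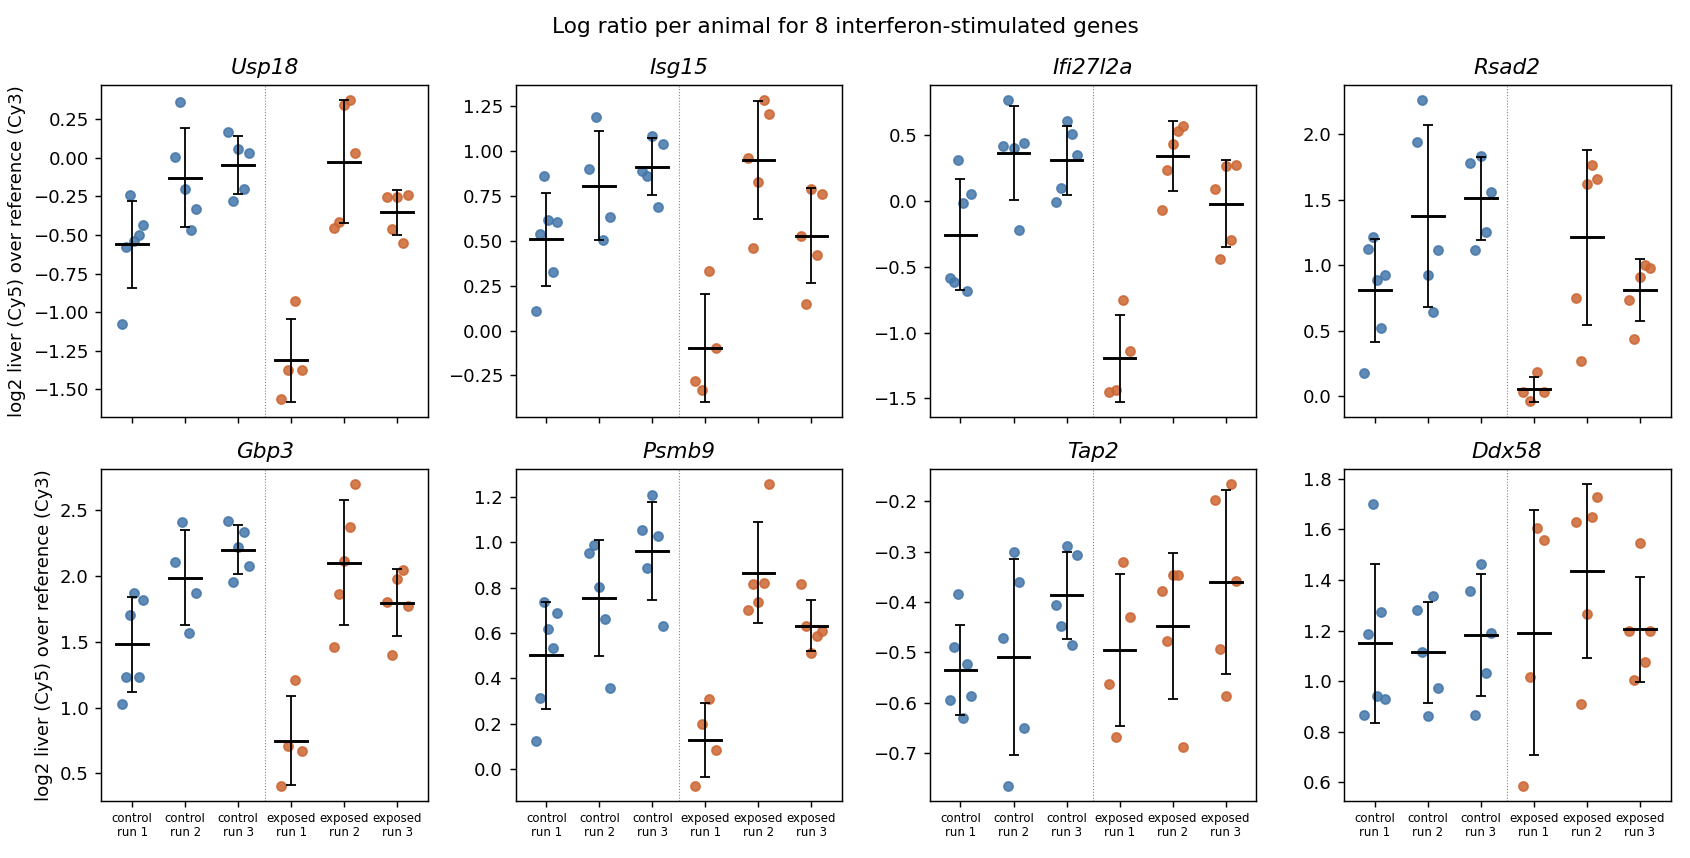
Log2 ratio of liver over reference in each animal for 8 members, by control and exposed run; lines are run means and bars are SD (n = 4 to 6; 1 flagged spot each is missing for Isg15 and Gbp3 in control run 2). Usp18, Isg15, Ifi27l2a, Rsad2, Gbp3 and Psmb9 were lowest in exposed run 1, while Tap2 and Ddx58 did not pass the test.

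Of the 5 nucleic acid sensing genes, 2 fell in exposed run 1. Dhx58, which encodes LGP2, a regulator of the RIG-I-like receptors, stood at 0.63, 1.18, 1.39 and 0.92, against a lowest control of 0.99, a median of 1.62 and a highest of 2.12. The difference was -0.61 ± 0.14 (1.52-fold lower; limma adjusted p = 0.0127). This call was lost with the place term (adjusted p = 0.114), with a fixed slide term (adjusted p = 0.053) and without animal 176 (adjusted p = 0.111). In exposed run 2 Dhx58 stood at 2.02 ± 0.36, above every control run mean, with a difference of 0.39 ± 0.13 that did not pass (adjusted p = 0.279). Ifih1, which encodes the double-stranded RNA sensor MDA5, stood at 1.76, 2.48, 2.74 and 2.38 against controls from 2.41 to 3.32 (n = 15, with 1 flagged spot in control 596). Its difference was -0.55 ± 0.14 (limma adjusted p = 0.0215), but a second probe of Ifih1 gave -0.10 ± 0.15 (adjusted p = 0.792). The call was lost in 8 of 43 alternatives, among them without animal 176 (-0.35, adjusted p = 0.186). Ddx58, which encodes the sensor RIG-I, had a difference of 0.03 ± 0.16 (limma adjusted p = 0.943) and ran from 0.59 in animal 176 to 1.61 in animal 179, wider than the controls at 0.86 to 1.70. It was the only member above 0, and its sign turned with the Cy5 signal alone and without control 573 or exposed 179 or 180. Trim25, the ubiquitin ligase that activates RIG-I, stood at 0.33, 0.34, 0.64 and 0.72 and did not pass at -0.34 ± 0.10 (limma adjusted p = 0.0588). A second Trim25 probe gave -0.26 ± 0.19 (adjusted p = 0.493), and Trim25 was called in 7 of 44 settings. Zbp1, a sensor of Z-form nucleic acid, had a difference of -0.28 (adjusted p = 0.363).

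Antiviral effectors made up the group with most members, and 7 of 11 fell. Rsad2, which encodes viperin, an enzyme that makes a chain-terminating nucleotide, stood at 0.03, -0.04, 0.18 and 0.03 in the 4 animals. The lowest, median and highest controls were 0.18, 1.12 and 2.26. The exposed values formed a narrow band at or under the lower edge of a broad control range, and Rsad2 was 2.23-fold lower (-1.16 ± 0.23; limma adjusted p = 0.00325). Its 2 other probes were also lower, by 0.70 ± 0.15 and 0.62 ± 0.15. With the place term the Rsad2 difference was -1.07 and just missed the threshold (adjusted p = 0.0555). Bst2, which encodes tetherin, the membrane protein that holds budding virus at the cell surface, stood at 0.44, 0.77, 1.17 and 0.97. Of the controls all but animal 551, at 0.87, lay between 1.39 and 2.02. The difference was -0.83 ± 0.12 (1.78-fold lower; limma adjusted p = 0.000124), and exposed run 2 at 1.69 ± 0.15 and run 3 at 1.53 ± 0.19 lay close to the control mean of 1.65 ± 0.26. With median centring the Bst2 difference became -0.60 and did not pass (adjusted p = 0.151). Ifit3, of a family whose members bind viral RNA, stood at 0.54, 0.91, 1.37 and 1.01 against controls from 1.05 through 2.02 to 2.52. The difference was -0.93 ± 0.16 (1.91-fold lower; limma adjusted p = 0.00126).

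Each of the 3 tested members related to oligoadenylate synthetase was called lower in exposed run 1, but the calls did not hold equally across settings. Oas1a makes the activator of the RNA-degrading RNase L, and Oasl1 and Oasl2 are related proteins. Oasl2 stood at -1.11, -1.24, -1.17 and -1.22. Every control, from -1.07 to 0.10, was higher than these 4 animals, and so was every animal of exposed runs 2 and 3. Oasl2 was lower by 1.73-fold (limma adjusted p = 0.00162), Oas1a by 1.45-fold (adjusted p = 0.00979) and Oasl1 by 1.42-fold (adjusted p = 0.0398). Oasl2 was called in all 44 settings, Oas1a in 40 and Oasl1 in 33. Median centring and the place term each ended the calls of Oas1a (adjusted p = 0.306 and 0.130) and Oasl1 (adjusted p = 0.552 and 0.216), and leaving out animal 176 ended that of Oasl1 (adjusted p = 0.171). Cmpk2, a mitochondrial nucleotide kinase that neighbours Rsad2 in the genome, was lower by 0.66 ± 0.17 (limma adjusted p = 0.0206), and a second Cmpk2 probe gave -0.45 ± 0.15 (adjusted p = 0.0784). Cmpk2 was called in 39 settings and not without animal 176 (adjusted p = 0.124). Of the effectors that did not pass, Ifit1 had a difference of -0.62 ± 0.22 (limma adjusted p = 0.0945) with animal 179 at 0.69, near the control median of 0.74. Ifit2 had a difference of -0.27 (adjusted p = 0.154), which became -1.14 with the processed Agilent signals (adjusted p = 0.00266), the membrane protein Ifitm3 at -0.23 (adjusted p = 0.275) and Eif2ak2, the RNA-activated kinase PKR, at -0.19 (adjusted p = 0.168). Ifitm3 had the largest p of the effectors, with 0.26 in animal 176 and 0.99 in animal 179, against controls from 0.56 to 1.36. Its sign turned to 0.05 with median centring. With the processed Agilent signals Ifit1 (-0.979, adjusted p = 0.0259) and Eif2ak2 (-0.34, adjusted p = 0.0200) were called as well.

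Of 6 other induced genes, 3 fell. Ifi27l2a, a small membrane protein of the ISG12 family, had the largest difference of all 37 genes. It stood at -1.45, -1.44, -0.75 and -1.14 in the 4 animals, below each of the 16 controls (-0.69 to 0.77) and each of the other 10 exposed animals (-0.44 to 0.57). Ifi27l2a was 2.5-fold lower (-1.32 ± 0.18; limma adjusted p = 0.000101), and its second probe gave -0.997 ± 0.149 (adjusted p = 0.000238). Rtp4, an interferon-induced protein that acts against flaviviruses, stood at -0.05, 0.14, 0.48 and -0.06 against controls of 0.39 to 1.43 with a median of 0.93. Only animal 179 reached the control range, and the difference was -0.77 ± 0.13 (limma adjusted p = 0.000547). With median centring the Rtp4 difference became -0.64 and did not pass (adjusted p = 0.199). Lgals3bp, a secreted glycoprotein that binds galectins, stood at 0.33, 0.66, 0.78 and 0.61 against controls of 0.51 to 1.27, and fell by 0.44 ± 0.11 (limma adjusted p = 0.0220). It was called in 37 of 44 settings, and the difference became -0.19 with median centring (adjusted p = 0.865). Ifi44, at -0.70, -1.13, -0.67 and -1.14, lay within the control range of -1.36 to -0.00 and did not pass (limma adjusted p = 0.125), but it was called with the processed signals (-0.97, adjusted p = 0.0201). Ifi35 had a small difference of -0.24 ± 0.07 (adjusted p = 0.0612), and against exposed runs 2 and 3 it fell by 0.41 ± 0.08 (adjusted p = 0.00267), which became -0.23 with the place term (adjusted p = 0.410) and -0.22 with median centring (adjusted p = 0.644). Parp14, an ADP-ribosyltransferase, missed the threshold at -0.39 ± 0.12 (adjusted p = 0.0502), with 1 of its other 2 probes at -0.01.

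Among the GTPases induced by interferon gamma, which attack the vacuoles of intracellular microbes, 3 of 5 fell. Gbp3, a guanylate-binding protein, stood at 0.41, 0.71, 1.21 and 0.67, while the lowest, median and highest controls were 1.02, 1.87 and 2.42 (n = 15, with 1 flagged spot in control 572). Only animal 179 reached the control range. Gbp3 was 2.21-fold lower (-1.14 ± 0.17; limma adjusted p = 0.000313). Gbp2, of the same family, stood at 0.04, 0.09, 0.17 and 0.09, just below the lowest control of 0.18, so the 4 animals lay under every control but not under exposed animals 193, 194 and 215, at 0.13, 0.09 and 0.13. The difference was -0.60 ± 0.16 (limma adjusted p = 0.0236), a call lost in 6 of 43 alternatives. Igtp, an immunity-related GTPase also called Irgm3, stood at 1.67, 1.95, 2.16 and 2.26 against controls of 1.94 to 3.06 and was 1.47-fold lower (limma adjusted p = 0.00771). The Igtp call was lost with median centring (adjusted p = 0.457), with the place term (adjusted p = 0.0531) and without animal 176 (adjusted p = 0.0658). In exposed run 3 Igtp averaged 2.24 ± 0.16 and in control run 3 2.84 ± 0.16, a difference of -0.62 ± 0.14 that did not pass (adjusted p = 0.119). Irgm1, at -0.28 ± 0.10 (adjusted p = 0.0951), had a larger difference in exposed run 3, -0.35 ± 0.09 (adjusted p = 0.0823). Iigp1 had the largest p, with 5.53 in animal 176 and 6.28 to 6.40 in the other 3, against controls of 5.88 to 7.24 (limma adjusted p = 0.163). Liver RNA thus held much more Iigp1 than the reference in every animal.

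The 4 tested members of antigen processing split evenly. In the further list read below, B2m, Psme2, Tapbp, Psme1 and Psmb10 of the same pathway were called lower too. Their limma adjusted p ran from 0.00177 to 0.0401 (4.5% of named genes called lower). The inducible proteasome subunits Psmb8 and Psmb9, which replace constitutive subunits to make the immunoproteasome, fell. Psmb9 stood at -0.07, 0.20, 0.31 and 0.08 against controls of 0.12 to 1.21 (median 0.71) and was 1.52-fold lower (limma adjusted p = 0.00165). Psmb8 stood at -0.38, -0.27, 0.06 and -0.11 against controls of -0.12 to 0.76 and was 1.36-fold lower (adjusted p = 0.00431), with a like value of -0.43 ± 0.08 from its second probe. With median centring the Psmb8 difference became -0.24 (adjusted p = 0.806) and that of Psmb9 -0.42 (adjusted p = 0.518). Tap1 and Tap2, which form the peptide transporter into the endoplasmic reticulum and, like both subunits, are encoded in the MHC, did not pass. Tap1 stood at -0.09, -0.09, -0.08 and -0.43 with a difference of -0.06 ± 0.08 (limma adjusted p = 0.738). Tap2 stood at -0.56, -0.67, -0.32 and -0.43 against controls of -0.76 to -0.29, with a difference of -0.02 ± 0.08 (adjusted p = 0.932), and its sign turned in 6 of 43 alternatives.

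**Figure D3:**
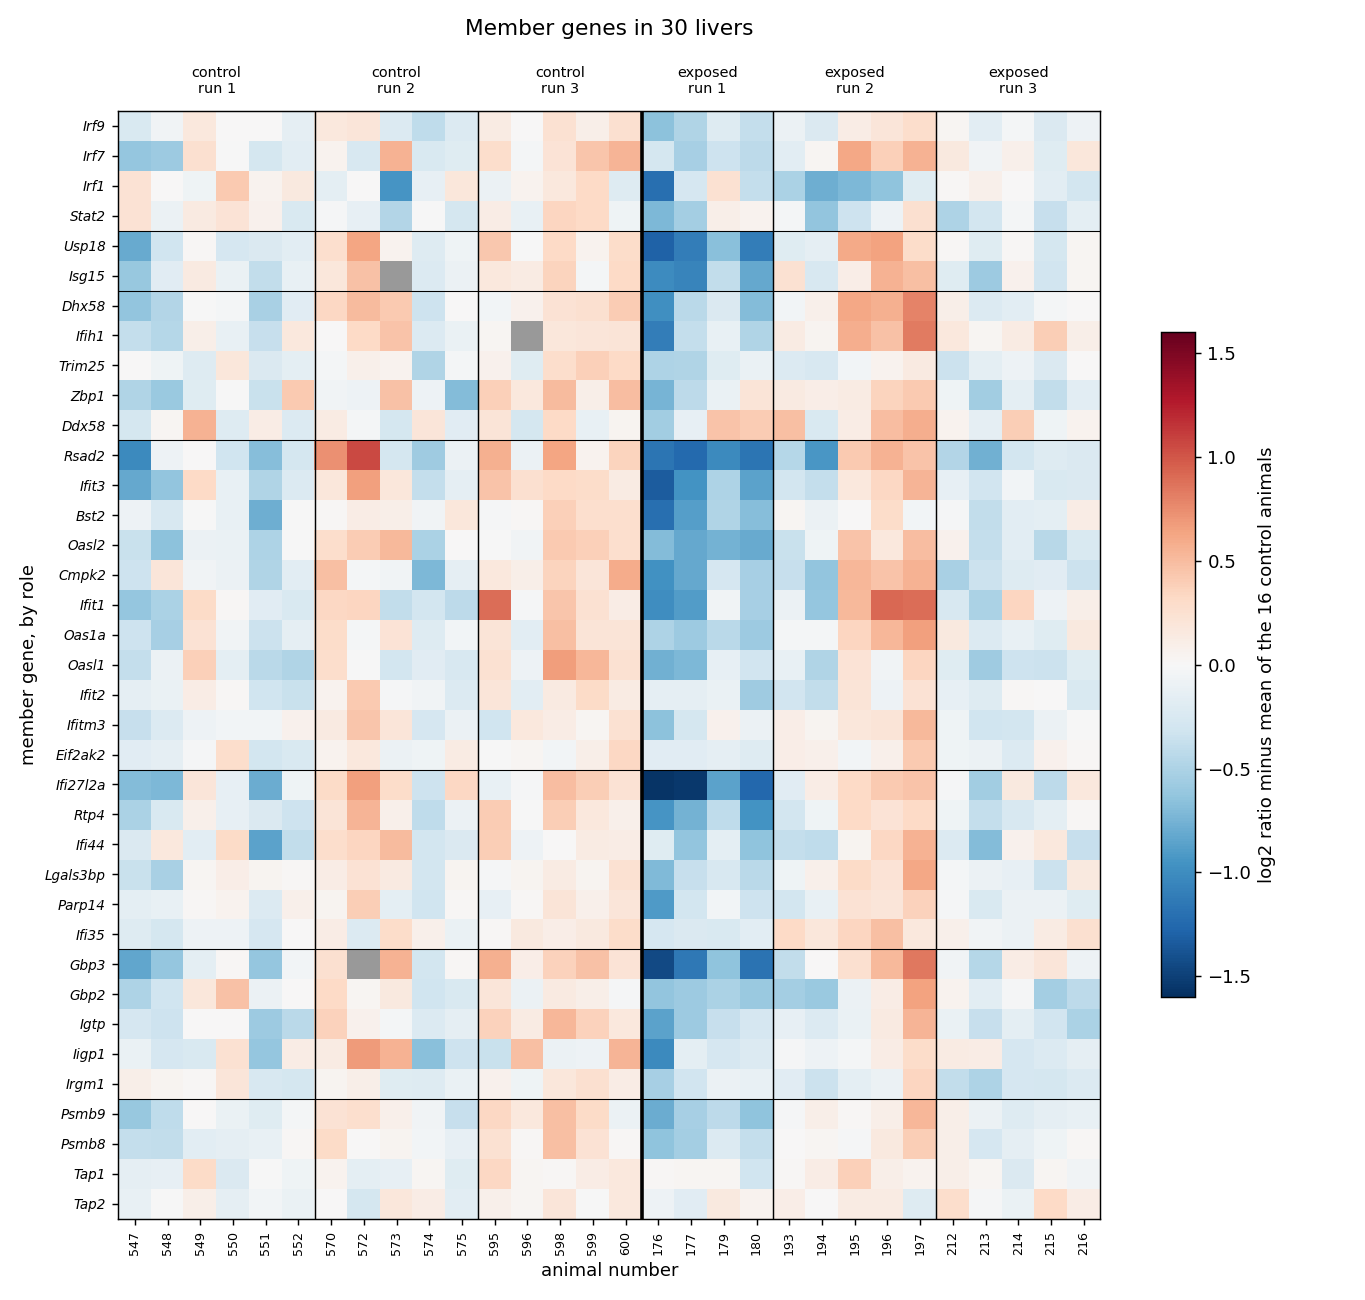
Log2 ratio of each of the 37 genes in each of the 30 animals, minus the gene's mean over the 16 controls (blue lower, red higher, grey a flagged spot); columns are animals by run and rows are genes by role. The column of animal 176 is the lowest of all 30 for 25 genes, and that of animal 197 the highest for 14.

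The 4 animals of exposed run 1 were not alike. Animal 176 had the lowest log ratio of all 30 animals for 25 of the 37 genes, and animal 179 for 0. The mean over all members was 0.24 in animal 176, 0.43 in 177, 0.74 in 179 and 0.53 in 180. In the controls this mean ran from 0.65 to 1.29, so that animal 179 lay inside the control range and the other 3 below it. In exposed run 2 it ran from 0.81 in animal 194 to 1.42 in animal 197, whose value was the highest of all 30 animals for 14 genes. In exposed run 3 it ran from 0.73 to 0.94, within the control range. The members' median SD within a run was 0.25 in controls and 0.27 in exposed animals, against 0.18 and 0.17 over all named genes.

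Targets of both interferon classes were lower in exposed run 1. Of the 27 type I targets 15 fell, with a median difference of -0.51, and of the 10 type II targets 5 fell, with a median of -0.45. The share called lower over all named genes was 4.5%. The mean over type I targets was 0.06, 0.22, 0.57 and 0.35 in animals 176, 177, 179 and 180, and 0.45 to 1.15 in the controls. The mean over type II targets was 0.707, 0.999, 1.22 and 1.02, against 1.17 to 1.68 in the controls. In both classes 3 of the 4 animals lay below every control and animal 179 within the control range. Within an animal, the type II mean minus the type I mean was 0.69 ± 0.06 in exposed run 1, 0.64 ± 0.07 in control run 1, 0.53 ± 0.11 in control run 2, 0.58 ± 0.12 in control run 3, 0.43 ± 0.13 in exposed run 2 and 0.60 ± 0.12 in exposed run 3. The animals of exposed run 1, at 0.642 to 0.782, overlapped with those of control run 1, at 0.503 to 0.713, and lay above those of exposed run 2, at 0.285 to 0.60. This difference between runs was not tested. The difference of the 2 medians was 0.06, and it became 0.239 with the processed signals and -0.02 with the place term. Among the exposed runs, 15 of 27 type I and 4 of 10 type II targets differed by the F test (5.16% of named genes called). The median differences of exposed run 2 were 0.13 and 0.05 and those of exposed run 3 -0.15 and -0.11 for type I and type II.

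**Figure D4:**
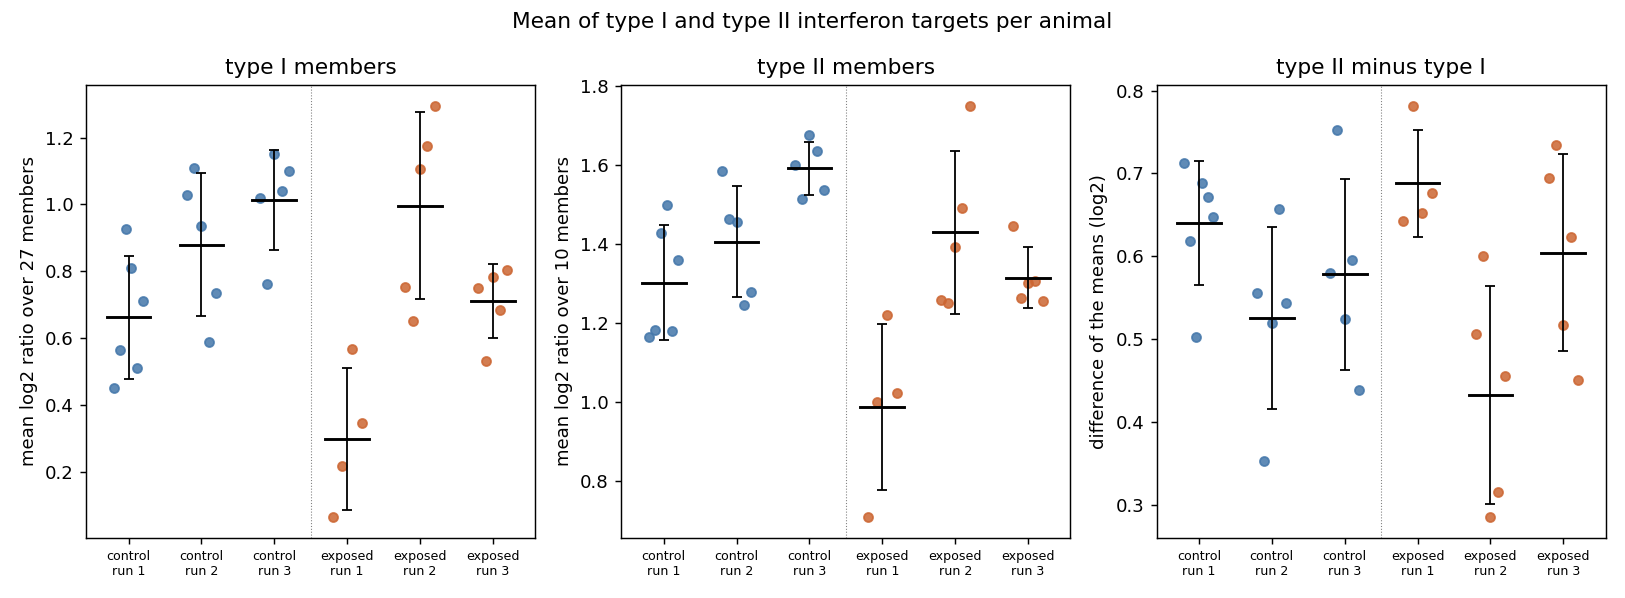
Mean log2 ratio per animal over the 27 type I targets (left) and the 10 type II targets (middle), and their difference (right), by control and exposed run; lines are run means and bars are SD, and the means of control animals 572, 573 and 596 each lack 1 flagged member. Exposed run 1 is lowest in the left and middle panels (0.06 to 0.57 and 0.71 to 1.22), while in the right panel its 4 values, 0.64 to 0.78, overlap those of control run 1.

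Which controls the exposed run was set against mattered for the calls. Control run 1, whose animals took the same place in the pair as exposed run 1, was itself low: 35 of 37 genes lay below the mean of control runs 2 and 3, with a median of -0.32, although 0 of 37 passed (limma; 0.0492% of named genes called) and 22 had an unadjusted p below 0.05. Against control run 1 alone, exposed run 1 had a median of -0.32, with 35 of 37 genes below 0, and 3 genes fell (0.197% of named genes called lower and 0.32% in either direction). These were Usp18 at -0.73 ± 0.16, Bst2 at -0.61 ± 0.13 and Ifi27l2a at -0.93 ± 0.20, each with a limma adjusted p of 0.0400. This count became 0 under several alternatives and without exposed animal 176, 177 or 180 or control 549, 550 or 552, and 1 without control 547 or 548. Rsad2 at -0.73 ± 0.26 (adjusted p = 0.261) and Gbp3 at -0.72 ± 0.20 (adjusted p = 0.129) did not pass. The difference between the run 1 offset of the exposed group and that of the control group was below 0 for 31 of 37 genes with a median of -0.25, and 0 of 37 passed (0% of named genes called; 8 at an unadjusted p below 0.05).

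Exposed run 3 and control run 3 also share their place in the pair. There 35 of 37 genes lay below 0, with a median of -0.30 and 17 at an unadjusted p below 0.05, but 0 passed (0.0164% of named genes called). Rsad2 had the largest difference, -0.70 ± 0.26 (limma adjusted p = 0.319), followed by Oasl1 at -0.66 ± 0.16 (adjusted p = 0.140). Next came Cmpk2 at -0.62 ± 0.19 (adjusted p = 0.232) and Igtp. Between exposed run 2 and control run 2, 10 of 37 genes lay below 0, with a median of 0.08, and 0 passed (0% called; 2 at an unadjusted p below 0.05). Within the exposed group, run 1 against runs 2 and 3 gave 18 lower genes of 37 (6.58% of named genes called lower and 8.3% in either direction), with a median of -0.44 and all 37 below 0. This count of 18 became 3 with the place term, 5 with median centring and 10 with the Cy5 signal alone. Over all probes the median difference lay between -0.05 and 0.03 in each comparison of runs. In 14 of the 37 genes each run 1 animal lay below every animal of runs 2 and 3, among them Usp18, Rsad2, Ifit3, Gbp3 and Psmb9 (3.2% of named genes). Below every one of the 16 controls as well were Ifi27l2a and Oasl2, while Gbp2 lay below all controls only, which makes 3 of 37 (0.64% of named genes). The same 3 genes lay below every animal of control run 1 (2.03% of named genes).

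**Figure D5:**
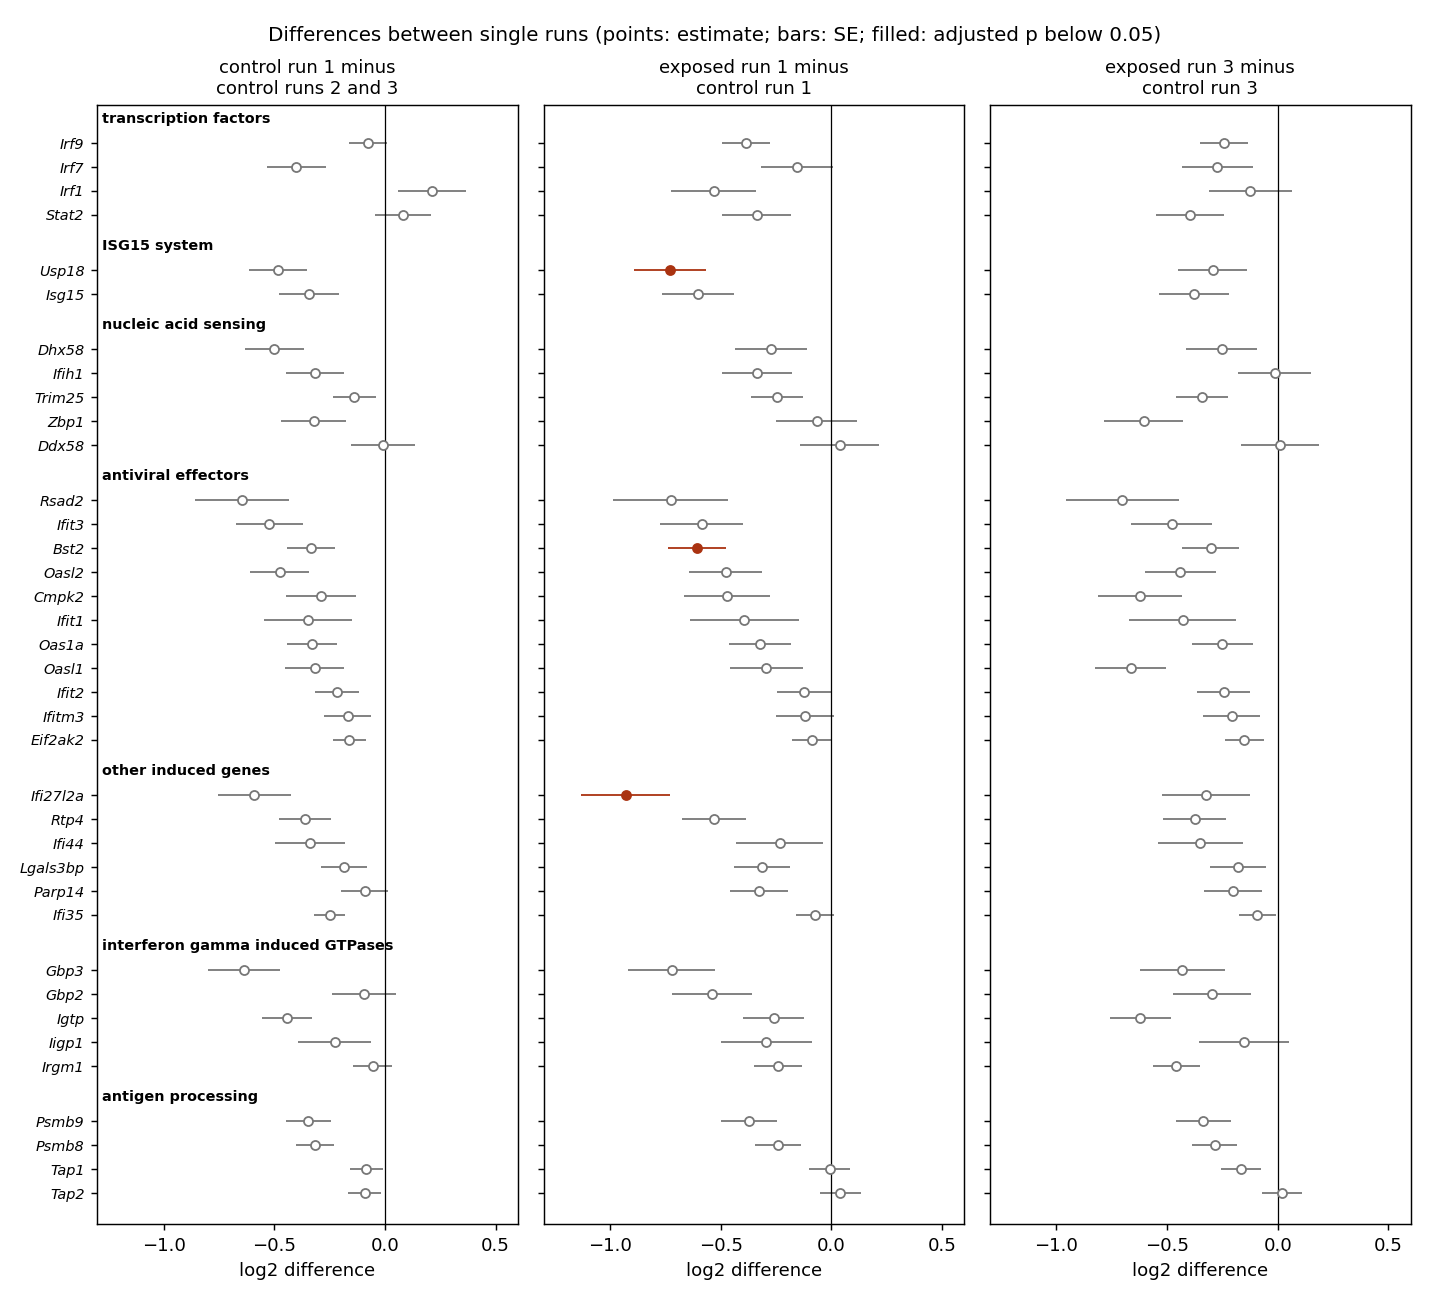
Log2 difference of each of the 37 genes between control run 1 and control runs 2 and 3 (left), exposed run 1 and control run 1 (middle) and exposed run 3 and control run 3 (right); points are limma estimates, bars are standard errors and filled points have an adjusted p below 0.05. Most points lie left of 0 in each panel (35 of 37), and only Usp18, Bst2 and Ifi27l2a in the middle panel are filled.

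The 4 animals of exposed run 1 were each on a slide with at least 1 control. Compared with the controls of its own slide, the exposed animal was lower on all 4 slides for 24 of the 37 genes (14.5% of named genes), and lower than the control run 1 animal there on all 4 for 15 (12% of named genes). For Usp18 these within-slide differences ran from -1.31 to -0.72, for Ifi27l2a from -1.84 to -0.44, for Gbp3 from -1.56 to -0.61 and for Rsad2 from -1.27 to -0.52. Over all 7 slides with both groups, 0 of 37 genes were lower in the exposed animals on every slide (1.79% of named genes). The reference channel, which held the same RNA on all arrays, called 0 of 37 genes in exposed run 1, with a median of 0.03 and differences from -0.34 for Irf1 to 0.23 for Stat2. For Usp18 the difference in the Cy5 signal alone was -0.80.

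Of 7 measured interferon and receptor genes, 2 fell in exposed run 1, both subunits of the gamma-interferon receptor: Ifngr2 by 0.42 (limma adjusted p = 0.00539) and Ifngr1 by 0.35 (adjusted p = 0.0356). The type I receptor subunits Ifnar1 and Ifnar2 stood at 0.08 and -0.08 and did not pass. Of 13 sensors and adaptors that induce interferon 0 passed (limma; 1 at an unadjusted p below 0.05), with a median of 0.01. In a further list of 26 interferon-induced genes 15 fell and 0 rose, with a median of -0.36 (4.5% of named genes called lower). It included the DNA sensor family genes Ifi204 at -0.71 (adjusted p = 0.000125) and Ifi205 at -0.66 (adjusted p = 0.00158), and B2m, the light chain of MHC class I, at -0.42 (adjusted p = 0.00177). Against control run 1 alone, 1 of the 26 fell, with a median of -0.26 (0.197% of named genes called lower). In that comparison 0 of the 7 interferon and receptor genes passed. Control run 1 against control runs 2 and 3 had a median of -0.12 over the 26, and 0 passed.

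Markers of cell types were read in exposed run 1 against the control runs, where 4.5% of named genes were called lower and 6.04% in either direction. Of 13 Kupffer cell and macrophage markers 1 fell, the lysozyme Lyz2, 3 had an unadjusted p below 0.05, and the list's median was -0.23 with 12 of 13 below 0. The mean of that list per animal was 2.60 to 3.27 in exposed run 1, within the range of control run 3 at 2.60 to 3.72. Of 9 tested T and NK cell markers (12 matched) 0 passed (limma; 3 at an unadjusted p below 0.05; median -0.21), and their mean was -0.27 to -0.13 in exposed run 1 and -0.20 to 0.51 over the 3 control runs. Of 10 endothelial markers 1 fell, Eng, 4 had an unadjusted p below 0.05, and all 10 lay below 0 with a median of -0.31. Their mean was 1.83 to 2.65, against 1.95 to 3.04 over the control runs. Of 4 tested dendritic (7 matched), 4 B cell (5 matched) and 2 neutrophil markers (9 matched) 0 passed with limma, where 0, 2 and 2 had an unadjusted p below 0.05, with medians of -0.14, -0.16 and 0.46. The neutrophil mean was 1.73 to 2.22 in exposed run 1 and 0.78 to 2.34 over the control runs, the B cell mean -1.38 to -1.18 and -1.29 to -0.78, and the dendritic mean -0.51 to -0.36 and -0.56 to 0.06. Of 9 hepatocyte markers 1 fell, the plasma protein gene Ttr, with a median of -0.10 and a mean of 5.54 to 5.70 in exposed run 1 against 5.09 to 6.53 over the control runs. The part of these shifts in the interferon-stimulated genes was not tested.

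Promoter matches were set beside the calls. Of the genes that fell in exposed run 1 and had a promoter in the table, 8 of 16 held an ISRE core, namely Rsad2, Bst2, Isg15, Ifit3, Oas1a, Gbp2, Gbp3 and Igtp. Of those that did not pass 3 of 13 held it, namely Stat2, Ifit1 and Irgm1. The GAS core stood in 4 of 16 and 3 of 13. These counts are a description without a test.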

How the data were processed

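Liver RNA of 30 mice was measured on 30 two-channel arrays. The deposited scanner files hold median spot and background intensity per dye, read out by Agilent Feature Extraction (10.7.3.1 on 25 arrays and 10.1.1.1 on 5, per the file headers). The processed intensity in the same files was background-subtracted and dye-normalized by that software, per the file headers. The authors' deposited value table holds log2 ratios of Cy5 over Cy3. On 17350 bright spots each of its 30 columns matched the uncorrected, loess-normalized ratio of its own array best (r from 0.998 to 0.999 across spots, slope from 0.9975 to 1.004), and its column medians ran from -0.045 to -0.021. It was used as an alternative.

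Intensities were corrected with normexp (offset 50) and loess-normalized within arrays in limma 3.58.1 (R 4.3.3), flagged outlier spots were set missing and spots of a probe were averaged. Probes well above background on at least 14 arrays were fitted with the group, or with the 6 runs, as means and slide as a random block (correlation 0.159 and 0.147). The fit was tested on simulated data. The number of arrays limits the precision, and each array is a separate animal by its label. Statistics are given per role for the 3 tested members with the smallest p and the 1 with the largest p in exposed run 1, and other members by their difference. Members, lists and tests were chosen with earlier results of these data known. The alternatives were 13 other settings and 30 fits without 1 animal each. Promoters of Usp18, Ifi27l2a, Dhx58, Mx2, Iigp1, Tap2, Rtp4, Parp14 and Zbp1 were not used here, and the list of signalling genes between receptor and promoter is not reported here.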

Additional observations from a re-analysis of the deposited data

Results flagged for a closer look

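In 168 groups of 4 to 6 animals (each named member and the class means in each run), 8 had an animal set far apart from the rest of its run by Dixon's criterion, a share near the 1 in 20 that chance gives. Animal 180 had a Tap1 log ratio of -0.428 in exposed run 1, where the others lay between -0.094 and -0.077, and animal 195 had 0.266 in exposed run 2. Iigp1 was 5.534 in animal 176, with 6.281 to 6.395 in the other animals of that run. Psmb9 was 1.258 in animal 197, above the 0.701 to 0.823 of the other animals of exposed run 2. Among the controls, Bst2 was 0.873 in animal 551, Trim25 was 0.339 in animal 574 and Ifih1 was 2.892 in animal 595, each the lowest of its run. The mean over type II members was 1.446 in animal 212, the highest of exposed run 3.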

How the results depend on the processing

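Of the 43 alternatives, none called a member higher in exposed run 1 against the control runs, and between 34 and 37 of the 35 to 37 members tested lay below 0. Gbp3, Ifi27l2a, Ifit3, Oasl2 and Usp18 passed in all 44 settings, and Ddx58, Ifitm3, Irgm1, Stat2, Tap1, Tap2 and Zbp1 in none. The cause of the changes that follow was not tested. With median centring the counts became 7 in exposed run 1 against the control runs, 0 against control run 1, 5 against exposed runs 2 and 3 and 5 among the exposed runs. With the place term they became 10 against the control runs, 3 against exposed runs 2 and 3 and 9 among the exposed runs. With the Cy5 signal alone they became 1 against control run 1, 10 against exposed runs 2 and 3, 7 among the exposed runs, 1 in exposed run 3 against control run 3, 1 in control run 1 against control runs 2 and 3, and 1 among the control runs. With array weights 1 member passed between all exposed and control animals, 2 in exposed run 2 and 1 in exposed run 3 against the control runs, and 3 in exposed run 3 against control run 3. With slide as a fixed block the counts were 0 against control run 1 and 6 among the exposed runs, and without the arrays of the earlier software 0 and 10. With no slide block, and with no filter on dim probes, 0 passed against control run 1. With the processed signals 1 passed in control run 1 against control runs 2 and 3. The type II minus type I median, 0.06, became 0.239 with the processed signals, 0.192 with median centring and -0.0194 with the place term. Without 1 animal at a time it ran from -0.0239 (without exposed 177) to 0.154, the count against the control runs from 12 to 23, that against control run 1 from 0 to 3, that against exposed runs 2 and 3 from 13 to 22, that among the exposed runs from 12 to 21, and that of exposed run 2 from 0 to 2 (2 without control 573). Tap2 turned to 0.057 with median centring, 0.0221 with the Cy5 signal alone, 0.0764 with the place term and 0.00402 with array weights, and without 1 animal it ran from -0.0881 to 0.044, above 0 without control 573 or exposed 177. Tap1 ran from -0.0984 to 0.0123 without 1 animal, above 0 without exposed 180, and Ifitm3 turned to 0.0456 with median centring. Ddx58 turned to -0.0739 with the Cy5 signal alone, and without 1 animal it ran from -0.106 to 0.211, below 0 without control 573 or exposed 179 or 180. No paired analysis was possible because the groups share no replicate numbers in the labels, so pairing by number was not run, and matching by slide, on the 7 slides with both groups, is the fixed block above. Ifi44 and Ifit2 stood well above background on 28 arrays. Their differences in exposed run 1 were -0.46 ± 0.17 and -0.27 ± 0.11, and they became -0.97 and -1.14 with the processed signals.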
